A study of Gallus gallus with 9 samples.

Results

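The transcription factors described here are those of the homeobox, SOX, basic helix-loop-helix (bHLH) and forkhead groups, with the EBF factors and the NR2 nuclear receptors, measured in the layer of amacrine cells from chick retina. They were taken by gene symbol: chicken probe sets whose single symbol in the platform annotation begins with LHX, PBX, IRX, ZFHX, BARHL, EBF, SOX, NEUROD, ONECUT, FOX, DLX, SATB, BHLHE or NR2, or is numbered like SIX3, without SOX2 and SOX9. The rule gave 148 of the 37693 chicken probe sets on the array, for 79 genes. BARHL and ONECUT genes were not analysed here, because 0 probe sets listed had such a symbol. A prefix is not a function, and 3 of the 79 genes encode no such factor: FOXRED1 and FOXRED2 encode oxidoreductase-like proteins, and NR2C2AP encodes a protein that binds a nuclear receptor. They were kept, since the rule takes them, and they account for 5 of the 148 probe sets.

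RNA came from the amacrine cell layer, cut by laser from sections 10 µm thick, and was amplified and read on Affymetrix Chicken Genome arrays, with 3 arrays for each of 3 groups. In the minus lens group, chicks wore a lens of -7 D over one eye for 24 h, which stimulates eye growth. In the plus lens group the lens was 7 D, which suppresses growth, and the control group was untreated and matched in age. Lights were on for 12 h in each day, with 500 lux for all birds. The labels give no age and no strain. They tie no array to a named chick, so the p-values speak for the scatter of 3 separate samples a group and may hold a technical part. Values are log2 of the deposited GCRMA intensity, 1 value per probe set and array.

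Homeobox, SOX, bHLH and forkhead proteins bind DNA through the domain that gives each family its name, and combinations of them set which kind of neuron a retinal cell becomes. Many stay on in the mature cell, where they hold the pattern of transmitter enzymes, receptors and adhesion proteins of that cell type. LIM homeobox proteins work with LDB cofactors, TALE homeobox proteins such as PBX pair with MEIS proteins, sine oculis proteins such as SIX3 recruit EYA proteins, and tissue bHLH proteins pair with the E proteins TCF3, TCF4 and TCF12. Such factors can act at low RNA levels, and short probe sets differ in how brightly they report the same amount of RNA. A signal below the threshold used here therefore does not show that a factor is missing, and the signal of one gene is not set against that of another.

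Of 16 amacrine cell markers, 15 had a probe set and 15 of these lay above log2 4 in controls. So did 6 of 9 measured markers of Müller glia, 8 of 10 of ganglion cells, 8 of 9 of bipolar cells, 4 of 5 of horizontal cells, 3 of 12 of endothelium and pericytes, 3 of 8 of pigment epithelium, 2 of 7 of microglia and leukocytes, 2 of 4 of oligodendrocytes, 1 of 10 of photoreceptors and 0 of 2 of red blood cells. Of all genes with a single symbol, 54.2% had a probe set above. Among the amacrine cell markers, TH was close to the threshold at 4.02 ± 0.30 and was not tested, and CHAT stood at 5.31 ± 2.24. The lists overlap: ISL1 is counted for ganglion, bipolar and horizontal cells, and EBF3 and BHLHE23 are both markers and members of the set. OTX2 of bipolar cells (log2 10.89) and GLUL of Müller glia (13.56) were above. POU4F2 (1.54) and SLC17A6 (2.42) of ganglion cells, LHX1 (3.26) of horizontal cells and IRX5 (2.52) of bipolar cells were below. A marker listed for another cell type need not be absent from amacrine cells, and the EBF factors act in some amacrine cells in mouse. The layer may have held RNA of several retinal cell types, but these counts do not show that it did and do not settle which. In such a mixture fewer cells of a type cannot be told apart from less RNA per cell. Minus lens replicate 3 stood apart, with a mean correlation of 0.9532 with the other arrays against 0.971 to 0.9754 for the rest. Over the tested probe sets of the transcription factor set its mean correlation was 0.9409, against 0.9747 to 0.9843. For many of the values named below that rested on it, though not for all, the value without it is given too.

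In controls, 44 of the 148 probe sets had a mean above log2 4, which is 29.7% of them, against 33.8% of all chicken probe sets. By gene, 32 of 79 had at least 1 such probe set (40.5%), against 54.2% of all genes with a single symbol. Both shares were somewhat below those of the array as a whole, and genes with more probe sets have more chances to be counted. Without the 3 genes that encode no such factor, 43 of 143 probe sets and 31 of 76 genes lay above the threshold. On 39 probe sets all 3 control arrays were above log2 4, and 84 probe sets had a control mean below log2 3. Just inside the threshold were BHLHE40 at 4.04 on its dimmer counted probe set and FOXO1 at 4.05. Just outside were LHX9 at 3.90 and IRX4 at 3.88, each on a probe set of a gene that another probe set put inside.

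**Figure D1:**
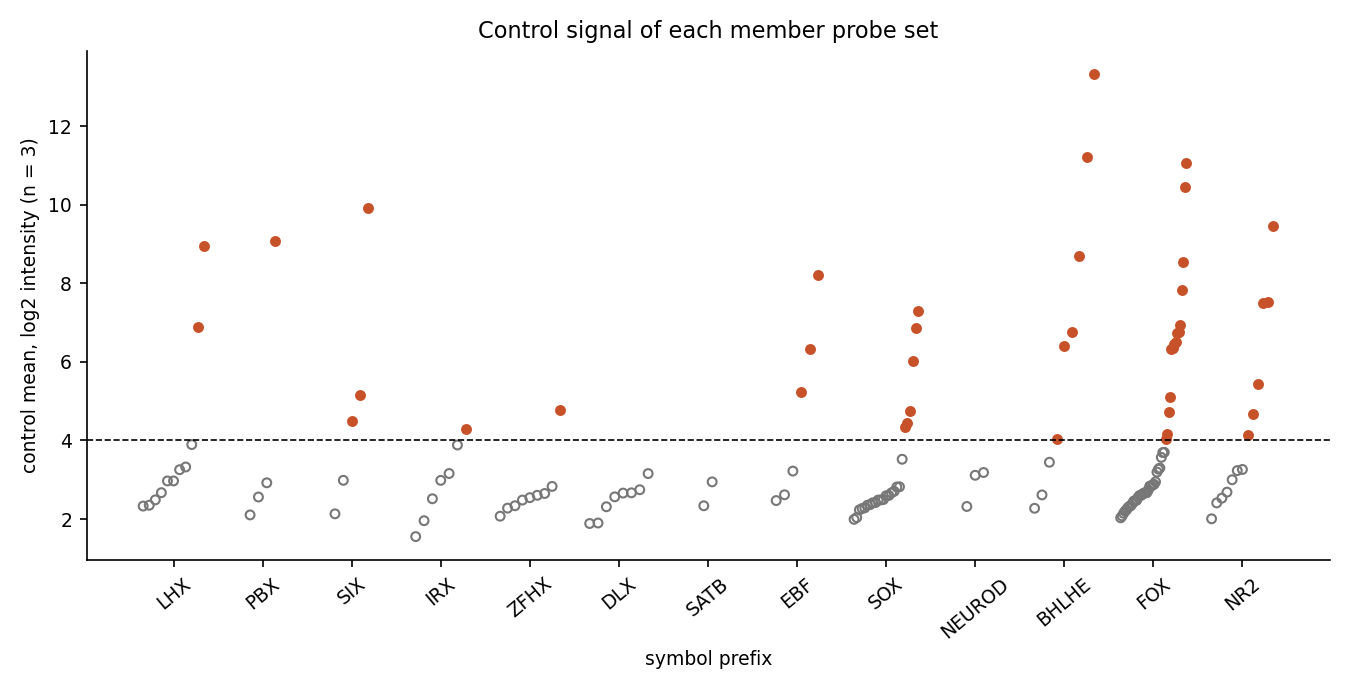
Control mean of each of the 148 probe sets (vertical axis, log2 intensity, mean of 3 control arrays) by symbol prefix (horizontal axis). Filled points lie above the dashed line at log2 4 (44 probe sets) and open points at or below it (104). Most open points lie below log2 3, while DLX, SATB and NEUROD have open points alone.

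Of the homeobox genes, 7 of 23 were above the threshold in controls. SIX3, which with SIX6 marks the field from which the eye forms, stood at log2 9.91 ± 0.08 (SD, n = 3) in controls, 9.84 ± 0.13 under the minus lens and 9.86 ± 0.05 under the plus lens. Its 9 arrays spanned 9.74 to 9.99, so the groups overlapped within a narrow band. SIX6 stood at 4.49 ± 0.16 and SIX5, a relative linked in humans to the myotonic dystrophy locus, at 5.16 ± 0.17. All 3 genes of this family with probe sets were thus above log2 4, while SIX3 and SIX6 cannot be ranked against each other from their signals.

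LHX9, a LIM homeobox gene that in mouse marks a subset of amacrine cells, stood at 8.96 ± 0.08 on its brightest probe set and 6.885 ± 0.219 on the next. It was the 1 LIM homeobox gene of 7 above the threshold. Below it were LHX1, a marker of horizontal cells, LHX2, which acts in the early eye and in Müller glia, and LHX3, LHX5, LHX6 and LHX8, none with a control mean above 3.33. PBX3, a TALE protein that binds DNA beside other homeobox factors, stood at 9.09 ± 0.21, and PBX4 had 3 probe sets of at most 2.92.

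IRX4, of the Iroquois family that in chick patterns the retina among other tissues, was close to the threshold at 4.30 ± 0.35, with 4.57, 3.90 and 4.42 on the 3 control arrays. IRX1, IRX2 and IRX5 were below. ZFHX4, a very large protein with zinc fingers and homeodomains, had 1 of 6 probe sets above, at 4.78 ± 0.11, and ZFHX3 had 0 of 3. DLX1, DLX3, DLX5 and DLX6 were below on all 8 probe sets (highest 3.16), as was SATB1, a chromatin organiser, on both of its own (highest 2.95). In the order of genes on the GRCg7b assembly, the neighbours DLX5 and DLX6 were both below, and in the chain IRX4, IRX2 and IRX1 the first alone was above.

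EBF factors carry a zinc-binding DNA domain and a helix-loop-helix part, and in mouse they act in amacrine cells that do not use GABA and in some bipolar and ganglion cells. EBF3 stood at 8.21 ± 0.12 in controls on its brightest probe set and 6.32 ± 0.53 on the second, and EBF1 at 5.23 ± 0.20. The EBF2 probe set stood at 2.62. On the brightest EBF3 probe set the control arrays read 8.25, 8.08 and 8.30, a tight group that lay inside the range of the minus lens arrays, 7.95 to 8.65.

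Among the bHLH genes, all 4 of the BHLHE family and 0 of 3 of the NEUROD family were above log2 4. BHLHE22, which in mouse is needed for GABA amacrine cells and a type of OFF bipolar cell, stood at 13.33 ± 0.08 in controls, 13.30 ± 0.27 under the minus lens and 13.48 ± 0.13 under the plus lens. A second BHLHE22 probe set stood at 2.27, far below the threshold, so 2 probe sets of 1 gene can give opposite calls. BHLHE23, which in mouse keeps rod bipolar cells alive, stood at 8.70 ± 0.10 and 6.40 ± 0.09 on its 2 probe sets. BHLHE41 and BHLHE40, repressors tied to the circadian clock, stood at 11.22 ± 0.13 and 6.76 ± 0.56. NEUROD1, NEUROD4 and NEUROD6, which act in amacrine cell formation in mouse, had control means of 3.11, 2.32 and 3.18, each on a single probe set.

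Of the SOX genes, which bind the DNA minor groove and bend it, 5 of 14 were above. SOX5, of the SoxD group that lacks an activation domain of its own, stood at 7.31 ± 0.08 and 6.01 ± 0.15 on 2 of its 4 probe sets. SOX8, a SoxE factor found in mouse Müller glia, stood at 6.86 ± 0.19. SOX3, a SoxB1 factor of neural progenitors, stood at 4.75 ± 0.015, SOX18, a factor of endothelium, at 4.46 ± 0.51, and SOX4, of the SoxC group of young neurons, at 4.35 ± 0.04. Beside SOX18, 2 other endothelial and pericyte markers of 12 were above log2 4 in controls, KDR at 7.38 and RGS5 at 4.20, while SOX7 and SOX17 stood at 2.50 and 2.48. Below were also SOX10, a marker of oligodendrocytes, SOX1, SOX6, SOX11, SOX13, SOX14 and SOX30.

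Of the genes with a FOX prefix, 10 of 26 were above, FOXRED2 among them. FOXO3, a factor of stress resistance and cell survival held in check by insulin signalling, stood at 11.06 ± 0.15 on 1 of 3 probe sets, FOXO4 at 6.44 ± 0.37 and FOXO1 at 4.05 ± 0.44. FOXN3, a repressor first known from a cell cycle checkpoint, stood at 10.46 ± 0.19, and its relative FOXN2 at 6.74 ± 0.15, 6.77 ± 0.32 and 6.35 ± 0.04 on 3 of 4 probe sets. FOXP1 and FOXP2, repressors found in subtypes of mouse ganglion cells among other neurons, stood at 6.95 ± 0.37 and 4.16 ± 0.11. FOXK2, which represses genes of autophagy, had 4 of 5 probe sets above, from 7.82 ± 0.18 to 4.72 ± 0.12, and FOXL2, best known from the ovary and eyelid, stood at 5.10 ± 0.12. The 16 below included FOXC1, FOXC2, FOXD1, FOXD2 and FOXD3, of which FOXD1 came closest at 3.70 ± 1.67, with 5.63 on control replicate 2 and 2.77 and 2.69 on the other controls.

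Of the 6 genes with an NR2 prefix, 4 were above. NR2F2 (COUP-TFII), an orphan receptor found in a class of amacrine cells in mouse, stood at 9.45 ± 0.53 in controls, with 9.46, 9.97 and 8.92 on the 3 arrays, a wide spread for a bright probe set. NR2E1 (tailless), a repressor of neural progenitors and retinal glia, stood at 7.51 ± 0.43. NR2C1 and NR2C2, the testicular receptors, stood at 7.53 ± 0.23 and 4.13 ± 0.37 on their brightest probe sets. NR2E3, which defines rods, stood at 2.01, and 1 of 10 measured photoreceptor markers was above log2 4.

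Genes with several probe sets showed how far a call of presence depends on the probe set. Of 37 such genes, 2 had all of them above log2 4, 17 had none and 18 were mixed. Among 7 genes with at least 2 tested probe sets there were 16 pairs, whose correlation over the 9 arrays had a median of 0.28 and ran from -0.20 for BHLHE23 to 0.75 for a FOXK2 pair. These correlations rest on 9 arrays and small differences, and the probe sets share the arrays. Both of the brighter FOXN2 probe sets and the dimmest counted FOXK2 one are of the Affymetrix type whose probes may match several transcripts. So are the brightest probe sets of BHLHE22, SOX5 and FOXO4, the only PBX3 one, the dimmer BHLHE23 one and the dimmest NR2C1 one.

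Differences between groups were read from limma's fit of 12975 probe sets, those with log2 4 or more on 3 arrays or more. Of the set, 43 probe sets for 32 genes were tested. All 43 were also above log2 4 in controls, and 1 BHLHE40 probe set above it in controls was not tested, having reached log2 4 on 2 arrays. The other 104 probe sets were below log2 4 in controls and were not tested, and 99 of them reached log2 4 on 0 arrays.

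Under the minus lens 0 of 43 probe sets passed against controls (0.00771% of all tested probe sets did), with a smallest adjusted p of 0.683. At an unadjusted p under 0.05 there were 2 of 43, or 4.65%, against 7.03% of all probe sets. For 3 of 43, or 6.98%, the groups' arrays were fully separate, against 10% of all. A difference of 2-fold or more was seen for 0 of 43, against 1.16% of all. By prefix, 13 of 15 FOX probe sets had a lower mean (median log2 difference -0.15) and 5 of 6 SOX probe sets a higher one (median 0.11). Without minus lens replicate 3 these were 9 of 15 (median -0.17) and 3 of 6 (median 0.0041), so neither count held without that array. The 15 include FOXRED2, which encodes no forkhead factor and had a higher mean. They also hold 4 probe sets of FOXK2 and 3 of FOXN2, so they are not 15 separate genes. Over all 43 the median was -0.05, with 28 lower (65.1%), and over all tested probe sets it was -0.03, with 55.9% lower. Without minus lens replicate 3, 24 of 43 were lower (55.8%), against 49.8% of all. With all arrays, the shares of separated and of nominally different probe sets were below those of the whole array, but they rest on 3 and 2 probe sets. Without minus lens replicate 3 the nominally different share was 9.3%, against 7.51% of all, so neither is read as a trait of the set.

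FOXK2 gave the smallest p. On its dimmest counted probe set the controls read 4.61, 4.70 and 4.84 and the minus lens arrays 4.12, 4.59 and 3.82. All 3 minus lens arrays lay below all controls, the nearest by little. The difference was log2 -0.55 (SE 0.19, 1.46-fold, adjusted p = 0.683) and -0.37 without minus lens replicate 3. The 3 brighter FOXK2 probe sets differed by -0.07, 0.32 and -0.27, so the gene as a whole had no common direction. Without minus lens replicate 3 these were 0.17, 0.55 and -0.23.

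FOXN2 was the next lower gene. Its dimmest tested probe set read 6.30, 6.36 and 6.38 on controls and 6.19, 5.96 and 5.999 under the minus lens, without overlap (log2 -0.30, SE 0.13, adjusted p = 0.716). Its other probe sets differed by -0.15 and -0.42 with overlap. Without minus lens replicate 3 the brightest of them had 0.0162 in place of -0.15, so the 3 shared a sign through that array alone. BHLHE40 read 6.11, 7.00 and 7.16 on controls against 6.36, 6.30 and 5.18 under the minus lens. Control replicate 1 was the low control and lay below 2 minus lens arrays. The difference was -0.81 (SE 0.45, adjusted p = 0.735), and -0.43 without minus lens replicate 3. Lower by smaller amounts were FOXN3 (-0.22), BHLHE41 (-0.23, and -0.08 without minus lens replicate 3) and LHX9 (-0.33 on its brightest probe set, 0.02 on the second). The LHX9 value rested on minus lens replicate 3, at 8.17 against 8.97 and 8.74 on the others, and was -0.10 without it.

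Among those with a higher mean, the smallest p was that of FOXRED2, one of the genes taken by prefix alone. It read 8.59, 8.63 and 8.43 on controls and 8.77, 9.04 and 8.83 under the minus lens, without overlap (log2 0.33, SE 0.13, 1.26-fold, adjusted p = 0.683). Another probe set with the same cluster number is annotated to both FOXRED2 and EIF3D, so its signal may not be that of FOXRED2 alone. The other FOXRED2 probe sets of the set stood at 2.34 and 2.20 in controls and were not tested. ZFHX4 read 4.88, 4.80 and 4.66 on controls and 5.25, 5.02 and 4.80 under the minus lens, which overlapped at the lowest minus lens array (0.25, SE 0.14, adjusted p = 0.735). SOX18 read 4.78, 3.87 and 4.72 on controls and 4.72, 4.72 and 5.47 under the minus lens, an overlap again (0.51, SE 0.33, adjusted p = 0.760). The SOX18 difference was 0.26 without minus lens replicate 3 and 0.22 without control replicate 2. IRX4 had 0.42 (SE 0.31), which rested on 5.47 on minus lens replicate 2 against 4.26 and 4.41 on the others and was 0.04 without it. The dimmer BHLHE23 probe set had 0.25 against -0.09 on the brighter one.

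SOX3 and the brightest NR2C1 probe set were picked out after their values were seen, because a single array made their differences. SOX3 read 4.45, 4.71 and 7.91 under the minus lens against 4.75, 4.77 and 4.74 on controls. Minus lens replicate 3 was thus far above every other array. The difference of 0.94 (SE 0.77), the highest of the 43, was -0.17 without that array. The brightest NR2C1 probe set read 7.67, 7.50 and 5.65 under the minus lens, and its difference of -0.59 became 0.06 without replicate 3. The dimmer NR2C1 probe sets did not rest on that array. They differed by -0.23 and -0.06 with all arrays, and by -0.30 and -0.15 without minus lens replicate 3. Without that array 0 of 43 passed and 4 had an unadjusted p under 0.05 (9.3%, against 7.51% of all). FOXL2 was lower (-0.67, against -0.35 with all arrays) and had the smallest adjusted p, 0.514. It read 4.77, 4.08 and 5.37 under the minus lens against 5.21, 5.10 and 4.98 on controls. The array left out thus lay above all controls, and replicate 2 was the lowest. Higher were the second FOXK2 probe set (0.55, against 0.32), ZFHX4 (0.36, against 0.25) and FOXRED2 (0.36, against 0.33).

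Of 8 tested bipolar cell markers, 5 had a higher and 3 a lower mean under the minus lens. The summed intensity of the 9 measured ones, of which OTX2 made up 45.8% to 65.6% by array, was 5089 to 7188 on the minus lens arrays, 3614 to 4403 on controls and 3736 to 4065 under the plus lens, and for the 10 photoreceptor markers, of which 8 stood below log2 4 in every group, it was 640 to 842, 379 to 504 and 547 to 611. The photoreceptor sum was mostly GNB3, at log2 8.54 in controls, so it followed that gene and does not speak for photoreceptors as a group. Of the 15 amacrine cell markers the sum was 56330 to 64660 under the minus lens and 63780 to 69930 on controls. GAD1, the brightest at log2 14.26 in controls, weighed most in it. Of the 14 tested, 3 had a higher and 11 a lower mean under the minus lens (median -0.15), against 55.9% of all tested probe sets that were lower. In these lists 0 markers passed the test. Under the minus lens 4 of the 8 tested bipolar markers had an unadjusted p under 0.05, against 7.03% of all probe sets. They were GNG13 (log2 1.39, adjusted p = 0.122), VSX1 (0.96), OTX2 (0.90) and GRIK1 (0.81), all higher, and the median of the 8 was 0.45. The marker lists were chosen with earlier results of these data known. BHLHE23, itself one of the bipolar markers, gave the opposing differences of its 2 probe sets stated above. The part of these markers in the differences of the set was not tested.

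**Figure D2:**
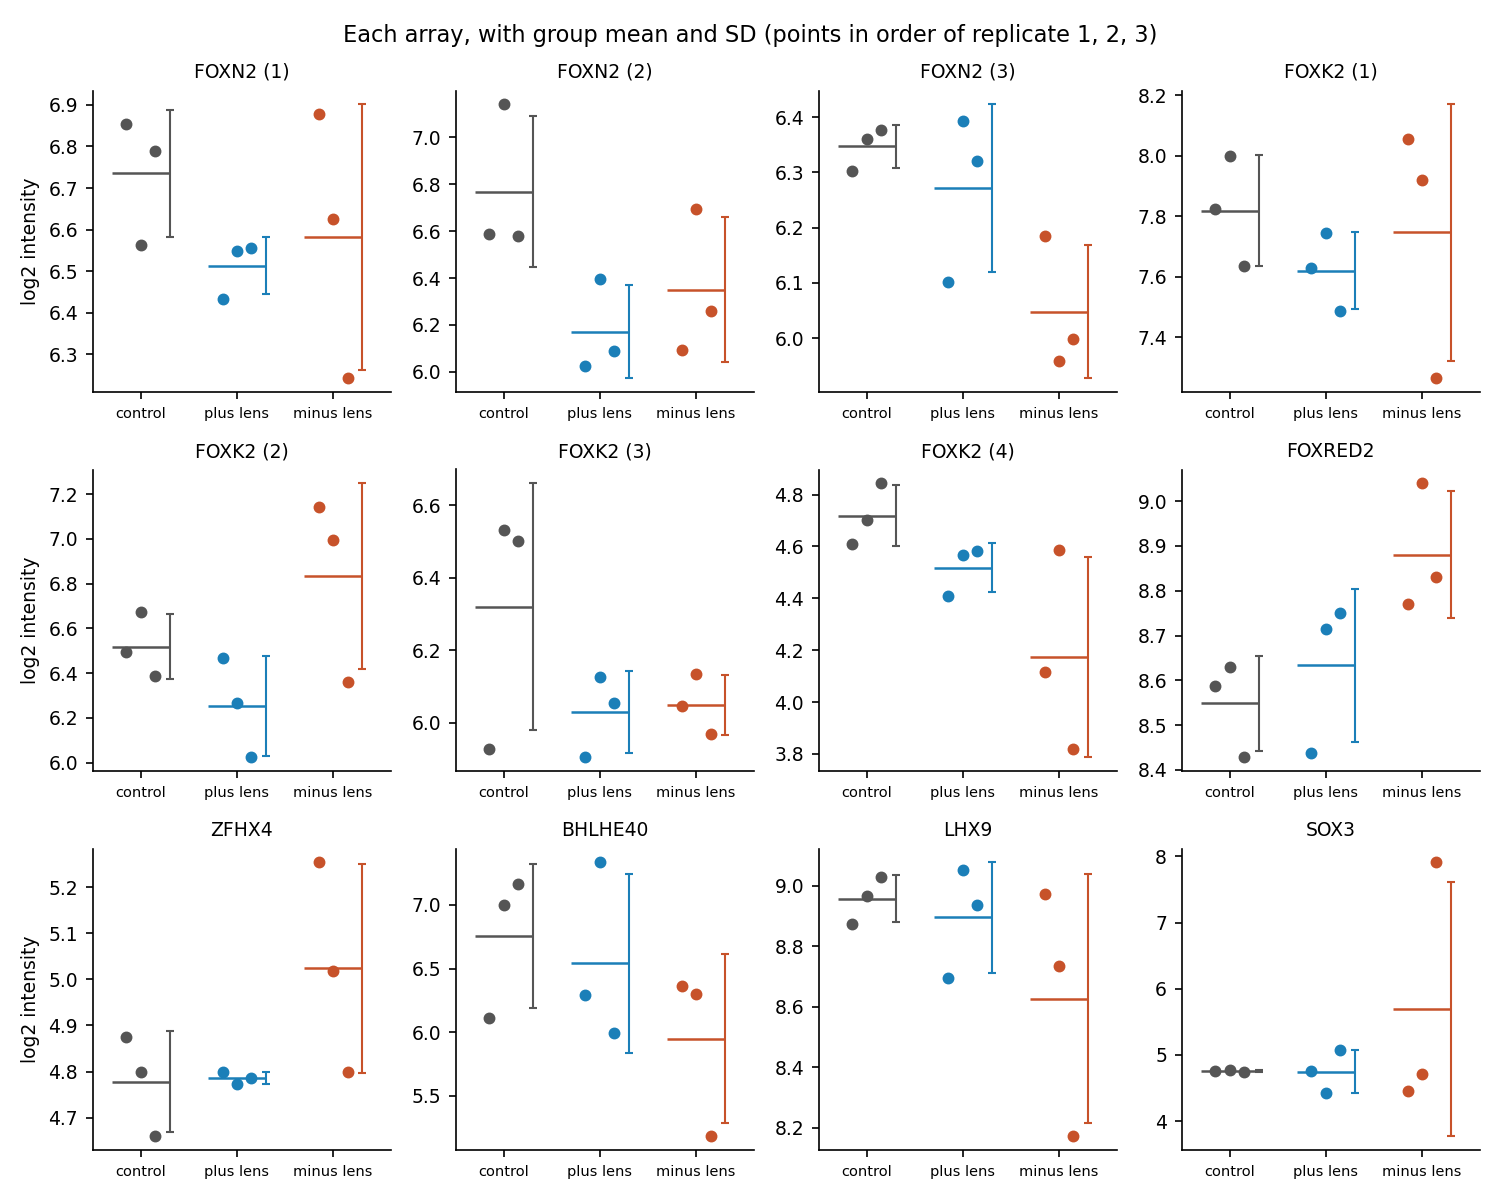
Log2 intensity on each array (vertical axis; scales differ between panels) for 12 probe sets, by group (horizontal axis), with points in order of replicate, a line at the group mean and a bar of 1 SD. Numbers in brackets order the probe sets of FOXN2 and FOXK2 from the brightest. FOXN2 (3) and FOXK2 (4) have minus lens arrays all below the controls, FOXRED2 has them all above, and the SOX3 difference lies on 1 array at 7.91.

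Under the plus lens 0 of 43 probe sets passed against controls (0.00771% of all did), with a smallest adjusted p of 0.9998. At an unadjusted p under 0.05 there was 1, or 2.33%, against 1.95% of all. For 4 of 43 (9.3%) the arrays were fully separate, and all 4 were lower, against 3.52% of all tested probe sets that separated downward and 6.67% in either direction. Of the 43, 0 differed by 2-fold or more, against 0.701% of all. In 31 of 43 the mean was lower (72.1%, against 50.6% of all), with a median of -0.08 against -0.0021 over all tested probe sets. That larger share was given no test, and FOXN2 alone gave 2 of the 4 separated probe sets. Under the plus lens Müller glia markers had a lower mean in 6 of 6 tested (median -0.23) and ganglion cell markers in 7 of 8 (median -0.17), with 0 passing, and their part in the shift was not tested. The summed intensity of the Müller glia list was 16010 to 25730 under the plus lens and 20950 to 29780 on controls, and that of the ganglion cell list 1634 to 1936 and 1606 to 2248. Probe sets with a FOX prefix were lower in 12 of 15, with a median of -0.12, and FOXRED2 was among those with a higher mean. The 12 include 4 probe sets of FOXK2 and 3 of FOXN2, so they are not 12 separate genes. Likewise, the 43 probe sets stand for 32 genes.

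FOXN2 led this comparison. Its second probe set read 6.59, 7.14 and 6.58 on controls and 6.03, 6.40 and 6.09 under the plus lens, without overlap (log2 -0.60, SE 0.22, 1.51-fold, adjusted p = 0.9998). Its brightest probe set read 6.85, 6.56 and 6.79 on controls and 6.43, 6.55 and 6.56 under the plus lens, separated by a narrow gap (-0.22). The dimmest tested one had -0.08 and overlapped. FOXN2 thus had lower means on all 3 probe sets under the plus lens, while for minus lens arrays, set against the same 3 controls, this needed replicate 3.

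The brighter BHLHE23 probe set read 8.72, 8.79 and 8.59 on controls and 8.57, 8.42 and 8.44 under the plus lens, separated by little (log2 -0.22, SE 0.12, adjusted p = 0.9998). Its dimmer probe set went the other way, with 6.39, 6.49 and 6.31 on controls and 6.49, 7.10 and 6.48 under the plus lens, an overlap (0.29, SE 0.20). The second value rested on plus lens replicate 2 and was 0.09 without it. All 4 FOXK2 probe sets had lower means, by -0.20, -0.27, -0.29 and -0.20. That with -0.29 read 5.93, 6.53 and 6.50 on controls and 5.90, 6.13 and 6.06 under the plus lens, which overlapped with the low control. The dimmest read 4.41, 4.57 and 4.58, below all controls, and was the 1 probe set of 43 that separated from controls in the same direction under both lenses (2.33%, against 1.7% of all), with differences of -0.55 and -0.20. Both separations use the same 3 control arrays, so they are not independent of each other. The probe set was also dim, at log2 3.82 to 4.84 over the 9 arrays.

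Higher by p under the plus lens, and overlapping with controls, were PBX3 and BHLHE22. PBX3 read 9.26, 8.86 and 9.15 on controls and 9.34, 9.38 and 9.21 under the plus lens (log2 0.22, SE 0.16). BHLHE22 read 13.23, 13.39 and 13.37 on controls and 13.61, 13.48 and 13.35 under the plus lens (0.15, SE 0.14). In both, the lowest plus lens array lay below the highest control. The PBX3 difference was 0.11 without control replicate 2. Next in order were SOX18 (0.26), the dimmest NR2C1 probe set (0.17, against -0.07 and -0.13 on the brighter ones) and FOXRED2 (0.09). The first of these turned to -0.04 without control replicate 2, and the NR2C1 value to -0.08 without plus lens replicate 1. On the lower side SIX5 had -0.18, FOXN3 -0.17 and the dimmer EBF3 probe set -0.42 (SE 0.38; -0.15 without control replicate 3), against -0.12 on the brighter.

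**Figure D3:**
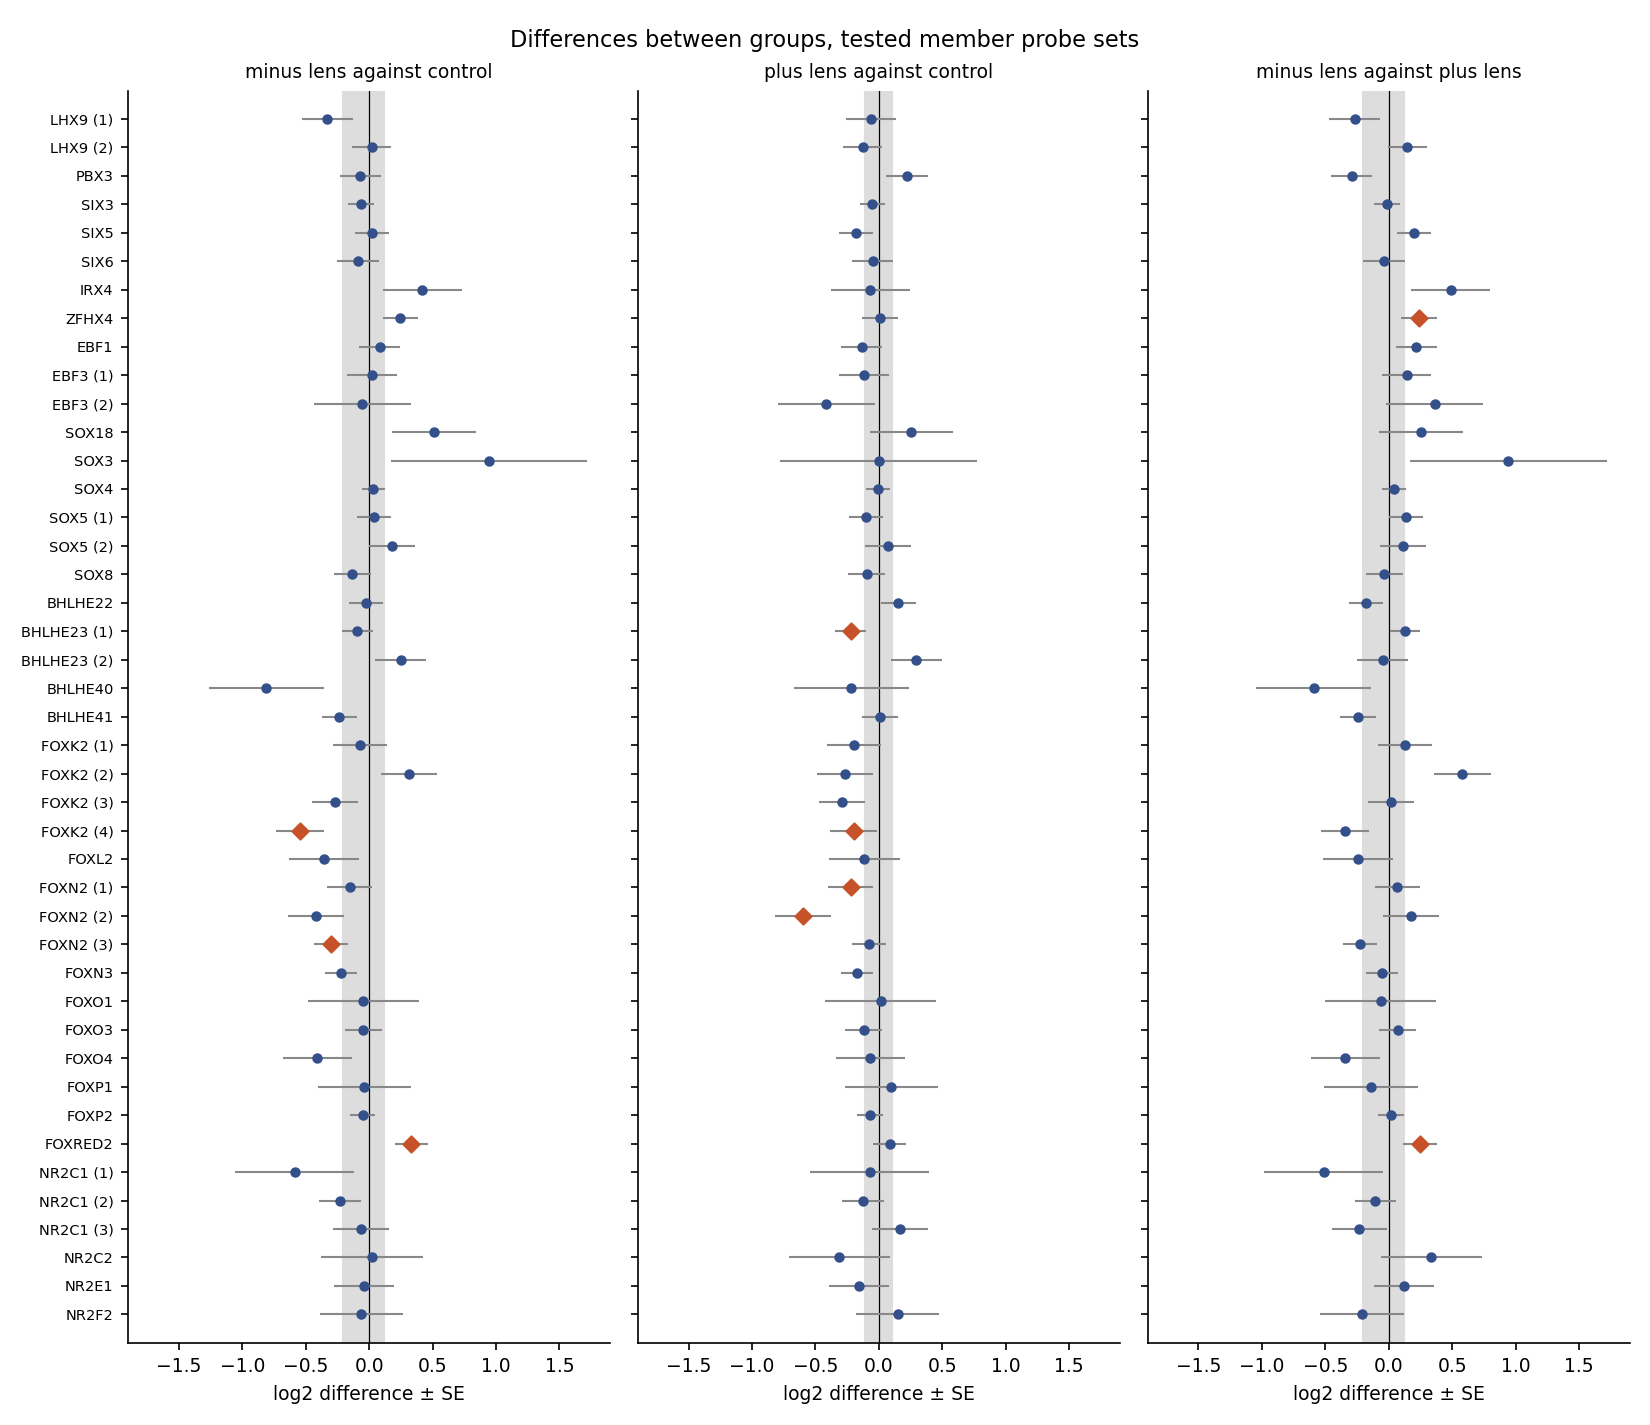
Log2 difference with its SE (horizontal axis) of the 43 tested probe sets (vertical axis), for each of the 3 comparisons. Diamonds are probe sets whose arrays did not overlap between the 2 groups (3, 4 and 2 of 43), and the grey band holds the middle 50% of all 12975 tested probe sets. No probe set passed the test, and the widest SE, that of SOX3, reflects 1 minus lens array.

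Setting the 2 lenses against each other addresses the sign of the blur. Again 0 of 43 probe sets passed (0.0154% of all did), with a smallest adjusted p of 0.689, and 1 (2.33%, against 7.08% of all) had an unadjusted p under 0.05. The arrays were fully separate for 2 of 43 (4.65%, against 9.68%), and 0 differed by 2-fold or more (1.08% of all). The median was 0.02, against -0.03 over all tested probe sets, and 23 of 43 were higher under the minus lens (53.5%, against 45.2%). Bipolar cell markers were higher under the minus lens in 8 of 8 tested (median 0.46) and Müller glia markers in 6 of 6 (median 0.29). Amacrine cell markers were higher in 3 of 14 (median -0.07) and ganglion cell markers in 5 of 8 (median 0.08). In these lists 0 markers passed, and their part in the differences of the set was not tested.

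The second FOXK2 probe set gave the smallest p. It read 7.14, 7.00 and 6.36 under the minus lens and 6.47, 6.26 and 6.02 under the plus lens, with minus lens replicate 3 below plus lens replicate 1. The difference was log2 0.58 (SE 0.22, 1.50-fold, adjusted p = 0.689), and 0.82 without minus lens replicate 3, where it did not pass either (adjusted p = 0.512). The other FOXK2 probe sets differed by 0.13, 0.02 and -0.35, so again the gene had no common direction. Without minus lens replicate 3 these were 0.37, 0.06 and -0.17. FOXRED2 (0.25) and ZFHX4 (0.24) were the 2 whose arrays did not overlap. FOXRED2 read 8.44, 8.71 and 8.75 under the plus lens, against a lowest minus lens array of 8.77. ZFHX4 read 4.80, 4.77 and 4.79 under the plus lens, and its highest plus and lowest minus lens arrays were equal to the decimals given. Both separations were therefore narrow.

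Higher under the minus lens by order of p were also IRX4 (0.49, and 0.11 without minus lens replicate 2), SIX5 (0.20) and EBF1 (0.22). Lower were PBX3 (-0.29, SE 0.16), BHLHE41 (-0.24, SE 0.14), the dimmest tested FOXN2 probe set (-0.22), LHX9 (-0.27) and BHLHE40 (-0.59, SE 0.45). Without minus lens replicate 3 the LHX9 difference was -0.04 and that of BHLHE40 -0.21, and the latter was -0.20 without plus lens replicate 2. PBX3 read 9.07, 9.26 and 8.72 under the minus lens, overlapping with the plus lens arrays. BHLHE41 read 11.22, 11.07 and 10.68 against 11.19, 11.25 and 11.26, and its difference was -0.09 without minus lens replicate 3. The PBX3 difference was -0.14 without it. An F test over the 3 groups gave 0 of 43 (smallest adjusted p = 0.919, against 0.0154% of all probe sets that passed) and 1 (2.33%, against 5.29% of all) at an unadjusted p under 0.05.

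**Figure D4:**
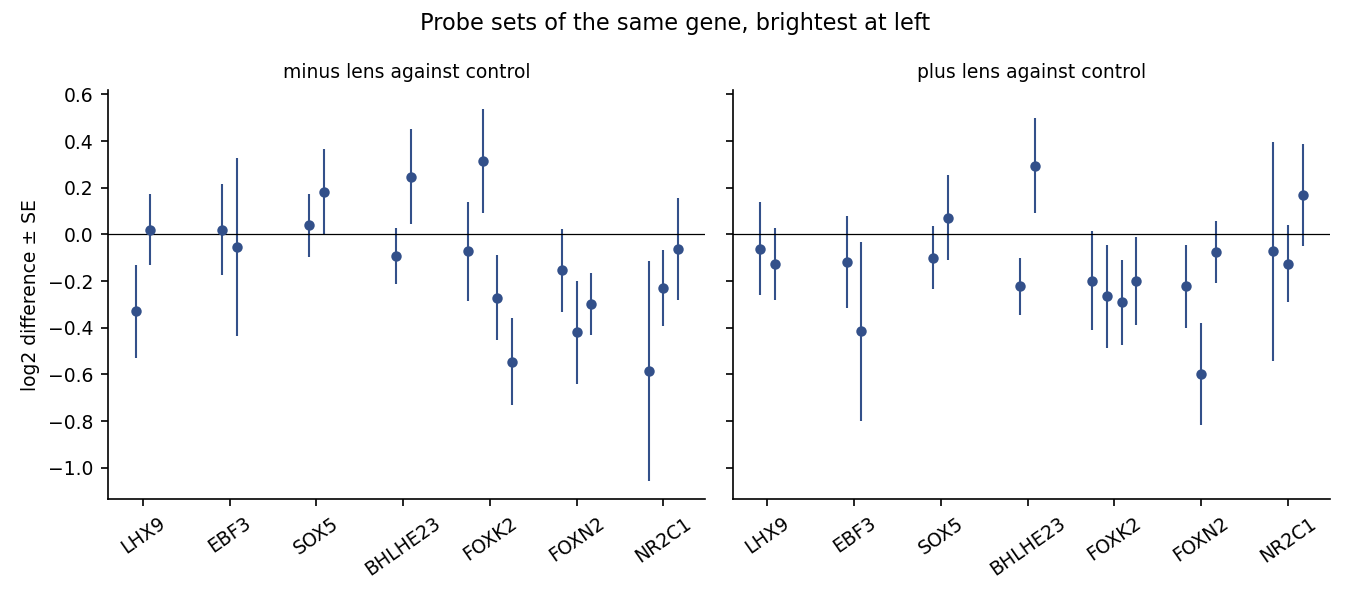
Log2 difference with its SE (vertical axis) for the 7 genes with at least 2 tested probe sets (horizontal axis), under the minus lens (left) and the plus lens (right) against the same controls. Points of a gene run from the brightest probe set at left. With all arrays FOXN2 lies below 0 on all 3 probe sets under both lenses (under the minus lens not without replicate 3), FOXK2 on all 4 under the plus lens alone, and BHLHE23 on 1 of 2.

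The size of change that these arrays could bound differed by gene. The 95% interval of the difference lay within 2-fold either way for 36 of 43 probe sets under the minus lens (83.7%, against 83% of all), 35 under the plus lens (81.4%, against 87.9%) and 34 between the lenses (79.1%, against 83%). These intervals are for single probe sets and are not adjusted. For SIX3 the interval was -0.30 to 0.17 under the minus lens and -0.28 to 0.18 under the plus lens, for FOXO3 -0.38 to 0.29 and -0.45 to 0.22, and for BHLHE22 -0.34 to 0.29 and -0.16 to 0.46. For BHLHE40 it was -1.84 to 0.22 and -1.25 to 0.81, and for SOX3 -0.82 to 2.70 and -1.76 to 1.76, both wider than 2-fold. The groups share one estimate of the spread, and without minus lens replicate 3 the plus lens interval of SOX3 was -0.41 to 0.40. The minus lens intervals above include that array. Without it the minus lens differences of SIX3, FOXO3, BHLHE22, BHLHE40 and SOX3 were -0.05, -0.19, -0.16, -0.43 and -0.17. GCRMA compresses dim signals, so the narrow intervals of SOX4 (-0.18 to 0.25 under the minus lens) and FOXP2 (-0.28 to 0.18), both near log2 4, bound the signal and not necessarily the RNA.

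Proteins that work with these factors or hold them back were read from lists of their own. Of 39 genes listed, 35 had a probe set and 20 were tested, of which 0 passed in any comparison. At an unadjusted p under 0.05 there were 2 of 20 under the minus lens (against 7.03% of all probe sets), 0 under the plus lens (1.95%) and 0 between the lenses (7.08%). For LIM proteins, LMO4 stood at 11.44 ± 0.16 in controls, SSBP3 at 7.24 ± 0.02 and LDB2 at 6.95 ± 0.06, while LDB1 stood at 2.49. Of the PBX partners, MEIS2, a factor of GABA amacrine cells in chick and mouse, stood at 7.50 ± 0.20, with a minus lens difference of -0.21 (SE 0.22). Of the partners of SIX3 and its relatives, DACH1 stood at 10.16 ± 0.10 (-0.26 under the minus lens, SE 0.10, adjusted p = 0.683) and EYA3 at 5.55 ± 0.14, with EYA1, EYA2 and EYA4 below log2 4.

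Of the bHLH partners, the E proteins TCF12, TCF4 and TCF3 stood at 10.55 ± 0.06, 9.41 ± 0.10 and 7.05 ± 0.09, and the inhibitors ID4 and ID2, which hold E proteins off DNA, at 10.81 ± 0.27 and 10.20 ± 0.10. TCF4 had a minus lens difference of -0.40 (SE 0.16, adjusted p = 0.683) and a plus lens difference of -0.04. Of the Groucho family genes, TLE4 stood at 9.93 ± 0.11 and AES at 9.41 ± 0.06, with minus lens differences of -0.09 and 0.26 (SE 0.12). By list, genes with a higher mean under the minus lens were 4 of 7 for LIM, 1 of 3 for PBX, 1 of 2 for SIX3 and its relatives, 4 of 6 for bHLH and 1 of 2 for the Groucho family. The bHLH list mixes partners with inhibitors such as ID2 and ID4, and the LIM list holds LMO genes and RLIM beside LDB2. A count of higher means therefore has no single meaning. Of the 20 tested genes 11 were higher and 9 lower, while 55.9% of all tested probe sets were lower. These small counts are not read as a trait of the lists.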

How the data were processed

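The authors deposited 1 intensity per probe set and array, and the submitters' processing notes name GCRMA, which corrects background, normalises arrays to one another and summarises probes; its version is not given in the sources used here. The scale was linear, read from the values (medians of 7.567 to 8.324, highest entries of 57318.6 to 68330.8). GCRMA pulls dim probe sets to a floor, and its normalisation removes any change in total RNA. Of 38535 probe sets, 96 controls and 746 others of non-chicken or reporter sequence were left out. Symbols came from the platform annotation; 3 probe sets that list a symbol of the set beside another were not used, and by Entrez number the RefSeq table of GRCg7b held all 79 genes, with 0 symbols changed. Log2 was taken with no pseudocount. A probe set was tested if it reached log2 4 on at least 3 of 9 arrays. The fit was limma 3.58.1 in R 4.3.3 (lmFit, eBayes with an intensity trend), all 9 arrays, two-sided, Benjamini-Hochberg over 12975 probe sets, threshold 0.05, with 6 residual and 2.64 prior degrees of freedom. It was also run on simulated data with normal noise independent between arrays and no outlying array. That run does not speak for data with an array like minus lens replicate 3, and its outcome is not given here. Arrays have no read depth, and their number limits the precision: the median SE was 0.182 for the 43 probe sets and 0.190 for all. The number of sample columns without a label was 0.

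The genes named are all those above log2 4 in controls by the brightest probe set, and per comparison the 6 tested genes with the smallest p in each direction, with values by array for the first 3. The members and the lists were chosen with earlier results of these data known. Group labels came from sample titles, which give replicate numbers 1 to 3 in each group; another label, that of the source, gives minus lens samples both words, plus and minus, and the titles were followed. Alternatives were other filters, quantile normalisation, median centring, a pseudocount of 16, array weights, no trend, the 6 arrays compared, a replicate block, 1 probe set per gene and leaving out each array.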

Additional observations from a re-analysis of the deposited data

How the results depend on the processing

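Over 20 alternative settings, 0 of the tested probe sets of the set passed in any of the 3 comparisons or the F test; the smallest adjusted p over all settings was 0.294, for the dimmest FOXK2 probe set under the minus lens without minus lens replicate 2. Leaving out 1 array at a time gave 0 calls throughout. Same-numbered arrays deviated together in only some pairs (correlations of -0.06 to 0.16), so the numbers were not taken to pair the samples. With the replicate block, the count also stayed at 0 in each comparison, and each array correlated best with its own number in 1 of 3, 1 of 3 and 2 of 3 cases. Of 696 recomputed differences of named genes, 694 kept their sign and 2 reversed: SOX18 under the plus lens ran from -0.0363 (without control replicate 2) to 0.4605 with 1 array left out, and the dimmest NR2C1 probe set under the plus lens from -0.0805 (without plus lens replicate 1) to 0.3081. The median difference under the minus lens was -0.0206 after median centring and 0.0080 with no filter, under the plus lens -0.0061 with no filter, and between the lenses 0.0595 after median centring; without 1 array it ran from -0.07 to -0.05, -0.10 to -0.07 and 0.02 to 0.05. The number of probe sets without overlap under the minus lens was 6 with no filter and 1 with 1 probe set per gene, under the plus lens 2 with 1 probe set per gene, and between the lenses 7 with no filter, 1 with the filter at log2 6 and 4 after median centring. Leaving out 1 array gave 4 to 9, 6 to 9 and 3 to 9, since 2 arrays separate from 3 more easily than 3 do. Both counts of 9 that involve the minus lens came without minus lens replicate 3. The share of all probe sets without overlap is not given for these settings, so these counts cannot be set against the shares of the main fit. The number above the threshold in controls was 28 at log2 6 and 43 to 45 without 1 control. Beyond the fewer or added probe sets and arrays that these settings bring by construction, the cause was not tested.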
